A study of Mus musculus with 48 samples.

Results

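Ccl2, Ccl3, Ccl4, Ccl5, Ccl6, Ccl7, Ccl9 and Ccl12 are CC chemokines, and arrays gave their mRNA levels in cortex and hippocampus of APP/PS1 and WT mice on H2O or MSX-3. The genes were taken by symbol through the accession that the array files give for each probe, which found 9 probes for the 8 genes (Ccl4 had 2) of 56605 probes in all. The mice were male, and the tissue of all groups, on H2O or MSX-3, was taken at 9 to 10 months of age. APP/PS1 mice were heterozygous for the APPswe/PS1dE9 transgenes, an Alzheimer's disease model on the C57Bl6/J background in which amyloid plaques form, and WT mice were their littermates. MSX-3 is a soluble prodrug of MSX-2, an antagonist of the adenosine receptor A2AR, and the mice drank it at 0.3 g/L until 9 to 10 months of age, starting at 3 months per the sample labels and at 4 months per the series description. The 8 groups (2 tissues, 2 genotypes, 2 agents) held 6 arrays each, 1 per mouse and tissue, from 24 mice. The grid of spots was not found on 2 cortex arrays (WT H2O mouse 310 and WT MSX-3 mouse 298), which were left out, so each WT cortex group had 5 arrays and 46 arrays were read.

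CC chemokines are small secreted proteins with adjacent cysteines near their amino terminus, and they attract leukocytes through G protein-coupled receptors. Ccl3, Ccl4 and Ccl5 attract T cells, monocytes and other leukocytes, Ccl6 and Ccl9 are rodent ligands of Ccr1, and Ccl2, Ccl7 and Ccl12 are ligands of Ccr2, the receptor that draws monocytes into tissue. In the brain, activated microglia, which gather around amyloid plaques, are a known source of several of them. All 8 genes lie on mouse chromosome 11. In the RefSeq annotation of GRCm38.p6, Ccl5, Ccl9, Ccl6, Ccl3 and Ccl4 follow each other with no other protein-coding gene between them, while Ccl2 and Ccl7 are neighbours and Ccl12 is separated from Ccl7 by Ccl11.

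RefSeq promoters were at hand for 4 of the 8 genes, and the 160 bases before the annotated start are shown because the genes around Ccl9 on the chromosome differed in how far they rose (build GRCm38.p6, written in the direction of the gene, minus strand for Ccl3, Ccl6 and Ccl9). Capitals mark a TATA box (TATAAA), the core of the PU.1 motif of myeloid cells (GGAAGT) and the NF-kB consensus, each searched on both strands, where matches of the TATA box may overlap, and no capitals fall within the stretch of Ccl3.
Ccl3, chr11:83649379-83649538: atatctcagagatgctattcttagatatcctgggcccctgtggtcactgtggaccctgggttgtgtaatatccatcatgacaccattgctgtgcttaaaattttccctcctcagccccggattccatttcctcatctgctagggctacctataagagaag
Ccl6, chr11:83593088-83593247: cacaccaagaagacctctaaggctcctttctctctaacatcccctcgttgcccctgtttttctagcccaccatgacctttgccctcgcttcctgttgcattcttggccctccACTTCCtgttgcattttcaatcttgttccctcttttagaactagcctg
Ccl9, chr11:83578637-83578796: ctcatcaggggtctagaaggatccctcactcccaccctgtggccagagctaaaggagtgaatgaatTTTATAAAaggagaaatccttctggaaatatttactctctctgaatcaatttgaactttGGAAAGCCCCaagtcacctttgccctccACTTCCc
Ccl12, chr11:82101685-82101844: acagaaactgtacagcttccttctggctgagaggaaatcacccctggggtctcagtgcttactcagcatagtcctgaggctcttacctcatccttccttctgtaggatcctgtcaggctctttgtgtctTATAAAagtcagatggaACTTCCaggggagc
Within 250 bases before the start, the PU.1 core occurred in all 4 promoters, against 19.7% of the 32851 mouse promoters of that length. Ccl9 alone of the 4 held the NF-kB consensus (3.90% of all promoters), 35 bases before the start, and the AP-1 motif TGANTCA (6.75%). Ccl9 and Ccl12 held a TATA box (12.4%), and none of the 4 held the core of the interferon response element ISRE (2.98%). The longest run of bases shared by any pair of these promoters was 13, between Ccl6 and Ccl9, and it covered the PU.1 core of both.

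A level is given below as log2 of the background-corrected spot signal minus the array's 75th percentile, so that 0 is the 75th percentile and 1 unit is a doubling. On the 46 arrays read, 55.8 to 75.5% of the probes were well above background, and the 75th percentile itself lay between 530.9 and 1073 intensity units. Levels of different probes are not comparable with each other, so each probe was compared between groups only. Of the cortical markers, 3 of 4 measured were higher on every cortex array than on any hippocampal array, and 6 of 6 hippocampal markers were higher on every hippocampal array. Of the 46 arrays, those of the APP/PS1 mice were scanned mostly on the earlier of 2 scan days (5 of 6 and 6 of 6 in cortex, 6 of 6 and 4 of 6 in hippocampus, on H2O and MSX-3), and those of the WT mice were spread over both days. Comparisons are therefore also given within a scan day, after the group means.

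In the cortex, all 7 CC chemokines that could be measured had higher mean levels in APP/PS1 than in WT mice, and Ccl3, Ccl4 and Ccl6 stood furthest apart. On H2O, 6 of 7 rose (adjusted p below 0.05 and at least 1.5-fold, limma with Benjamini-Hochberg adjustment over 37680 probes) and none fell. Of all probes tested, 1.34% rose under the same rule. In the same 6 genes, every APP/PS1 array lay above every WT array, which was so for 2.06% of the probes. The median log2 fold change of the 7 genes was 1.84, against -0.03 over all probes. On MSX-3, 7 of 7 rose, against 1.29% of the probes, and none of the 7 overlapped between genotypes, against 2.36%. A probe was tested if well above background on 4 or more arrays of any group of the tissue. In cortex Ccl3 and the brighter probe of Ccl4 met this only through APP/PS1 groups. Their WT groups reached 3 of 5 arrays on H2O and 1 of 5 on MSX-3. Counts that include their cortical values are therefore not independent of this filter. In whole tissue, fewer cells of a type and less RNA per cell cannot be told apart.

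Ccl3, whose spot was near background in WT mice, had the largest fitted change on H2O. On the WT H2O cortex arrays its levels were -7.39, -6.07, -5.02, -4.79 and -4.61, and the 2 lowest were not well above background. In APP/PS1 H2O cortex it ran from -0.63 (median -0.08) to 0.25, so the groups were separated by 3.98 log2 units. The difference was 5.40 ± 0.44 (SE) on the log2 scale, or 42.3-fold (adjusted p = 2.89e-05, limma), and it was 5.85 ± 0.24 or 57.5-fold on MSX-3 (adjusted p = 1.91e-07, limma). Ccl3 was well above background on only 1 of 5 WT MSX-3 cortex arrays, so the size of that fold rests on spots near background. With normexp background correction, which raises the lowest signals, the change of Ccl3 was 3.17 (8.99-fold) on H2O and 3.48 (11.1-fold) on MSX-3, it still passed, and on H2O it was then below that of Ccl6 (3.22). In the APP/PS1 cortex it was well above background on every array.

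Ccl4, the neighbour of Ccl3 on the chromosome, followed the same pattern on both of its probes. Its brighter probe (A_51_P509573) read -5.97, -5.92, -5.65, -5.04 and -4.91 in WT H2O cortex. In APP/PS1 H2O cortex the same probe ran from -1.10 (median -0.99) to -0.39. No APP/PS1 array came within 3.80 units of a WT array, and the log2 fold change was 4.62 ± 0.22 (24.6-fold, adjusted p = 6.72e-07, limma). The second probe (A_55_P2744077) gave 4.45 ± 0.23. On MSX-3 the changes were 5.67 ± 0.32 and 6.04 ± 0.32, again against WT arrays of which only 1 of 5 was well above background, and the second probe then exceeded Ccl3. With normexp the brighter probe changed by 2.57 (5.93-fold) on H2O and 8.58-fold on MSX-3 and still passed.

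Ccl6 was well above background on every array, so its fold change did not depend on spots near the limit. WT H2O cortex read -2.64, -2.58, -2.50, -2.35 and -2.23, and APP/PS1 H2O cortex ran from 0.75 (median 1.18) to 1.57. The log2 fold change was 3.65 ± 0.13 (12.6-fold, adjusted p = 7.71e-08, limma). On MSX-3 it was 3.71 ± 0.10 (13.1-fold), and its adjusted p of 9.66e-09 (limma) was the smallest of all 37680 probes in that comparison.

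**Figure D1:**
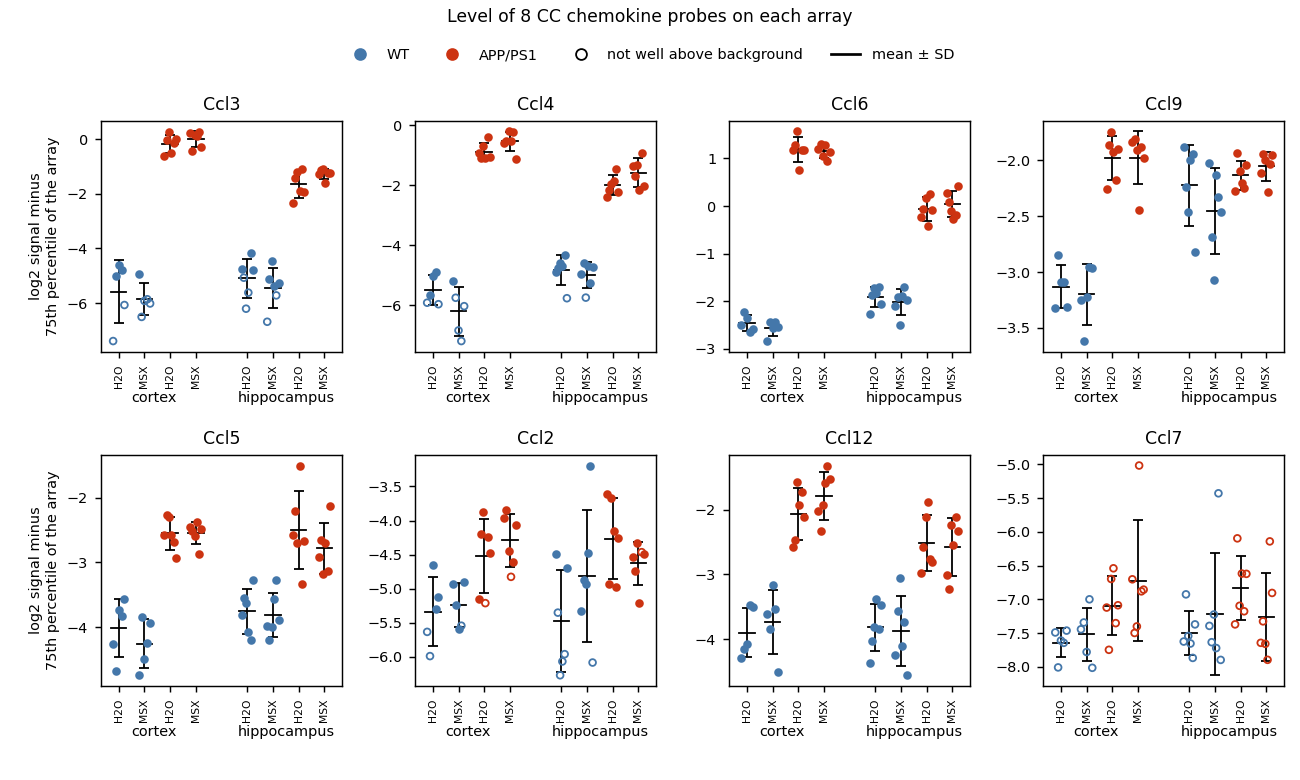
Levels of the 8 CC chemokines on every array read (y axis: log2 signal minus the array's 75th percentile; x axis: H2O and MSX-3 groups, cortex left and hippocampus right; blue WT, red APP/PS1; open circles not well above background; bars mean ± SD; 5 or 6 arrays per group; brighter probe of Ccl4). Ccl3, Ccl4 and Ccl6 separate by genotype in both tissues, and Ccl5, Ccl9 and Ccl12 do in cortex. Ccl12 also separates in H2O hippocampus, Ccl5 in MSX-3 hippocampus and Ccl2 in MSX-3 cortex. Ccl7 has open circles only.

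The other measured genes rose less. Ccl9 changed by 1.15 ± 0.12 (2.23-fold, adjusted p = 0.000179, limma) in H2O cortex, from WT values of -3.32, -3.31, -3.09, -3.09 and -2.85 to APP/PS1 values between -2.26 and -1.74. Ccl5, also known as RANTES, changed by 1.46 ± 0.20 (2.75-fold, adjusted p = 0.00157, limma). Ccl12, a Ccr2 ligand of the mouse, changed by 1.84 ± 0.22 (3.57-fold, adjusted p = 0.00055, limma). In all 3 genes the lowest APP/PS1 array exceeded the highest WT array, by 0.59 for Ccl9, 0.63 for Ccl5 and 0.91 for Ccl12. On MSX-3 the log2 fold changes were 1.22 ± 0.15 for Ccl9, 1.71 ± 0.16 for Ccl5 and 1.95 ± 0.24 for Ccl12, and all 3 passed the test. With normexp the H2O changes were 0.80 for Ccl9, 0.82 for Ccl5 and 1.13 for Ccl12, and all 3 still passed.

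Ccl2, the ligand best known for recruiting monocytes, was close to background. On H2O its cortical levels were -5.99 to -4.65 in WT and -5.21 to -3.87 in APP/PS1, and 4 of 6 APP/PS1 arrays lay above every WT array. The log2 fold change was 0.81 ± 0.29 with an adjusted p of 0.288 (limma). On MSX-3 it was 0.95 ± 0.20 (1.93-fold, adjusted p = 0.0401, limma), with a gap of 0.07 between the groups. That call, on which the count of 7 of 7 rests, was lost in 17 of 26 alternatives. It was lost when any of 8 of the 11 mice was left out (APP/PS1 266, 267, 281 or 319, or WT 49, 77, 282 or 303; adjusted p 0.0535 to 0.109, limma), with scan day as a block (0.94, adjusted p = 0.154, limma), and under normexp, where the change was 0.39. Ccl7 was well above background on none of the 46 arrays, between -8.01 and -5.02, so it was not tested and no fold change is given.

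In the hippocampus the APP/PS1 changes were smaller and fewer genes passed. On H2O, 4 of 7 rose (Ccl3, Ccl4, Ccl6 and Ccl12) and none fell, while 0.338% of the 38128 probes rose, and the same 4 genes did not overlap between genotypes, against 0.741% of the probes. On MSX-3, 3 of 7 rose (Ccl3, Ccl4 and Ccl6), against 0.312% of the probes, and those 3 and Ccl5 did not overlap, against 0.588%. The median log2 fold changes of the 7 genes were 1.30 on H2O and 1.30 on MSX-3, and those of all probes were -0.03 and 0.01.

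Ccl3 in the hippocampus ran from -6.21 (median -4.93) to -4.17 in WT H2O mice and from -2.35 (median -1.66) to -1.08 in APP/PS1 H2O mice. The log2 fold change was 3.46 ± 0.33 (adjusted p = 0.000279, limma). Ccl4 ran from -5.77 (median -4.72) to -4.31 in WT and from -2.40 (median -2.05) to -1.45 in APP/PS1, with a change of 2.83 ± 0.23 (7.13-fold, adjusted p = 8e-05, limma). Neither gene overlapped between genotypes, with gaps of 1.82 for Ccl3 and 1.91 for Ccl4. The second probe of Ccl4 changed by 2.81 ± 0.22. With normexp the changes on H2O were 3.54-fold for Ccl3, 2.82-fold for Ccl4, 1.72-fold for Ccl12 and 3.02-fold for Ccl6, and all 4 still passed.

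Ccl6 ran from -2.26 (median -1.85) to -1.70 in WT H2O hippocampus and from -0.41 (median -0.08) to 0.26 in APP/PS1, a change of 1.85 ± 0.13 (3.60-fold, adjusted p = 3.95e-05, limma). On MSX-3 the hippocampal changes were 4.17 ± 0.28 for Ccl3, 3.42 ± 0.24 for Ccl4 and 2.05 ± 0.15 for Ccl6, each with 6 of 6 APP/PS1 arrays above every WT array, and with normexp 2.18, 1.86 and 1.73. Ccl12 changed by 1.30 ± 0.21 on H2O (2.47-fold, adjusted p = 0.0154, limma). On MSX-3 its change was 1.30 ± 0.26 with an adjusted p of 0.0754 (limma), which fell to 0.0288 without WT mouse 282 and to 0.0497 without APP/PS1 mouse 267.

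Ccl5, Ccl2 and Ccl9 did not pass in the hippocampus. The log2 fold change of Ccl5 was 1.26 ± 0.26 on H2O (adjusted p = 0.0684, limma; 0.0260 without APP/PS1 mouse 323) and 1.03 ± 0.20 on MSX-3 (adjusted p = 0.0536, limma; 0.0276 without WT mouse 303). Those of Ccl2 were 1.21 ± 0.35 and 0.18 ± 0.38, where WT MSX-3 values spread from -6.08 to -3.19. Ccl9 differed by 0.09 ± 0.15 on H2O, with WT values from -2.82 to -1.88 enclosing all 6 APP/PS1 values, and by 0.40 ± 0.16 on MSX-3 (adjusted p = 0.959, limma). The 95% interval of the H2O difference, fitted without a block, ran from -0.23 to 0.42, so a rise of the size seen in the cortex lay outside it. All 6 of these APP/PS1 arrays were scanned on the earlier day and 4 of the WT H2O arrays on the later day. The H2O difference was 0.40 ± 0.18 with scan day as a block and 0.51 ± 0.20 with slide as a block, the latter above that interval.

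**Figure D2:**
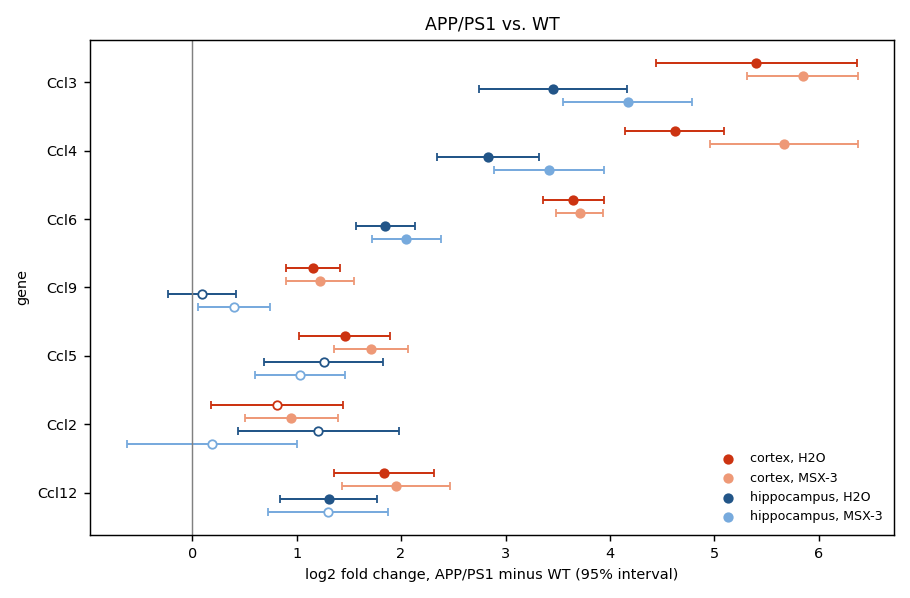
Log2 fold change of APP/PS1 over WT for the 7 measured CC chemokines (x axis; bars are 95% intervals from limma) in cortex and hippocampus on H2O and MSX-3 (filled points passed an adjusted p of 0.05 and 1.5-fold, open points did not). Cortical points of every gene but Ccl2 lie to the right of the hippocampal ones.

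The change with genotype was itself larger in cortex than in hippocampus for some of these genes. On H2O the difference between the tissues' log2 fold changes was 1.80 ± 0.19 for Ccl6 (adjusted p = 2.34e-05, limma), 1.78 ± 0.33 for Ccl4 (adjusted p = 0.0153, limma) and 1.06 ± 0.20 for Ccl9 (adjusted p = 0.0158, limma). These 3 of 7 genes passed, against 0.256% of 36743 probes. On MSX-3 it was 1.66 ± 0.19 for Ccl6 (adjusted p = 6.3e-05, limma) and 2.25 ± 0.42 for Ccl4 (adjusted p = 0.0168, limma), so 2 of 7 passed, against 0.185% of the probes. The second probe of Ccl4 passed in both. For Ccl3 the difference was 1.95 ± 0.57 on H2O and 1.68 ± 0.39 on MSX-3, with adjusted p of 0.357 and 0.108 (limma), and its WT arrays near background had the widest spread (SD 1.16 in WT H2O cortex). For Ccl5, Ccl2 and Ccl12 the difference did not pass (0.20, -0.39 and 0.53 on H2O).

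Because both tissues came from the same mice, the direction could be read mouse by mouse. Ccl6 was lower in cortex than in hippocampus in 5 of 5 WT H2O mice (cortex minus hippocampus -0.81 to -0.24) and higher in cortex in 6 of 6 APP/PS1 H2O mice (0.92 to 1.41). The same turn was seen on MSX-3, with 5 of 5 WT mice lower and 6 of 6 APP/PS1 mice higher in cortex. Ccl4 had the same signs in all 22 mice with both tissues, but its WT cortex spots were well above background on only 3 of 5 H2O and 1 of 5 MSX-3 arrays, so its signs in WT mice rest on spots near background. Ccl9 was lower in cortex in 5 of 5 WT H2O mice (-1.44 to -0.49), whereas its APP/PS1 H2O cortex exceeded the hippocampus by only 0.02 to 0.35. Its WT mean was -3.13 in cortex and -2.22 in hippocampus, and its APP/PS1 means were -1.98 and -2.13, so the tissues differed in WT and lay close together in APP/PS1 mice.

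With the mouse as a block, the tissue difference of Ccl9 on H2O was 1.01 ± 0.17 with an adjusted p of 0.0585 (limma), so that call was lost, while Ccl4 and Ccl6 passed on both agents. The Ccl9 call was also lost without any of WT mice 56 and 308 or APP/PS1 mice 259 and 325 (adjusted p 0.0506 to 0.0717, limma). That of Ccl4 on H2O was lost without WT mice 56 or 71 or APP/PS1 mouse 81 (0.0535 to 0.0596), and on MSX-3 without APP/PS1 mice 267, 281 or 283 or WT mouse 304 (0.0583 to 0.0705). The difference of Ccl3 passed with normexp on H2O (1.35, adjusted p = 0.00165, limma) and on MSX-3 (1.30, adjusted p = 2.44e-05, limma), and on MSX-3 also without WT mouse 49 (2.16, adjusted p = 0.000613, limma). With normexp that of Ccl4 was 1.07 on H2O and 1.25 on MSX-3, and that of Ccl9 on H2O 0.70, and all 3 still passed.

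**Figure D3:**
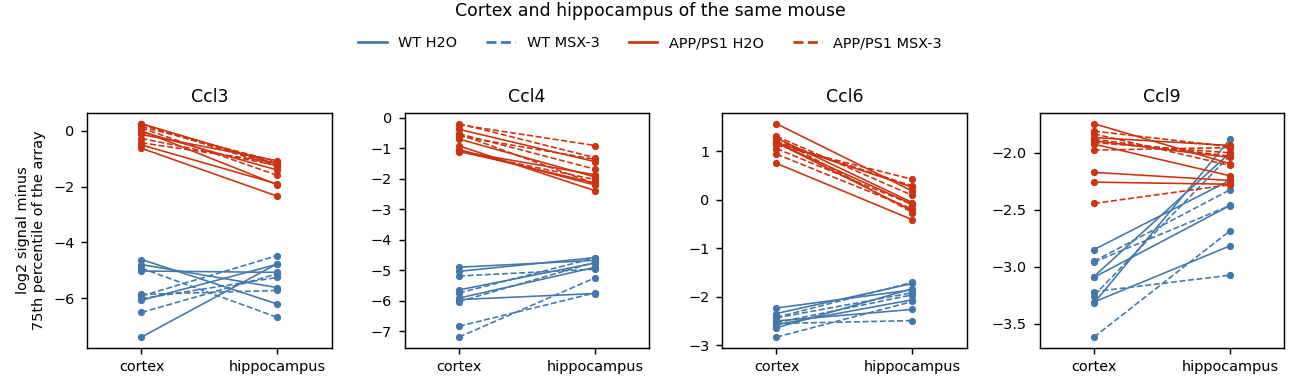
Levels of Ccl3, Ccl4, Ccl6 and Ccl9 in cortex and hippocampus of each mouse with both tissues read (y axis: log2 signal minus the array's 75th percentile; lines join a mouse's tissues; blue WT, red APP/PS1; dashed lines MSX-3; 5 WT and 6 APP/PS1 mice per agent). For Ccl4 and Ccl6 the red lines fall from cortex to hippocampus and the blue lines rise.

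MSX-3 did not change any of these genes detectably within a genotype, in either tissue. No member passed in APP/PS1 cortex, APP/PS1 hippocampus, WT cortex or WT hippocampus, where 0% of all probes passed in each of the 4 comparisons (limma; 2155, 1465, 3272 and 1932 probes were under an unadjusted p of 0.05, none of them the brighter probe of a member). Ccl3 on H2O and MSX-3 had means of -0.17 and 0.00 in APP/PS1 cortex, a difference of 0.18 with a 95% interval from -0.19 to 0.54. For Ccl6 the difference in APP/PS1 cortex was -0.04 (-0.30 to 0.23), for Ccl9 0.00 (-0.27 to 0.27) and for Ccl5 0.01 (-0.26 to 0.27). A change beyond 1.5-fold, which is 0.58 on the log2 scale, thus lay outside the intervals of these 4 genes in APP/PS1 cortex.

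Ccl4 had positive differences in APP/PS1 mice and negative ones in WT mice. In APP/PS1 it differed by 0.34 (-0.02 to 0.71) in cortex and 0.42 (-0.05 to 0.90) in hippocampus, and its second probe by 0.36 (0.04 to 0.67) and 0.52 (0.05 to 0.98). In WT cortex it differed by -0.71 (-1.53 to 0.12), with 1 of 5 MSX-3 arrays and 3 of 5 H2O arrays well above background, and its second probe by -1.23 (-2.10 to -0.36). In WT hippocampus the difference was -0.16 (-0.70 to 0.38). None of these passed after adjustment. Wide intervals were those of Ccl3 in WT cortex, -0.27 (-1.38 to 0.85), and of Ccl2 in WT hippocampus, 0.66 (-0.32 to 1.64). In APP/PS1 hippocampus the other differences were 0.38 (-0.06 to 0.81) for Ccl3, 0.10 (-0.22 to 0.41) for Ccl6, -0.29 (-0.87 to 0.30) for Ccl5, -0.36 (-0.91 to 0.18) for Ccl2, -0.06 (-0.57 to 0.45) for Ccl12 and 0.08 (-0.10 to 0.26) for Ccl9.

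**Figure D4:**
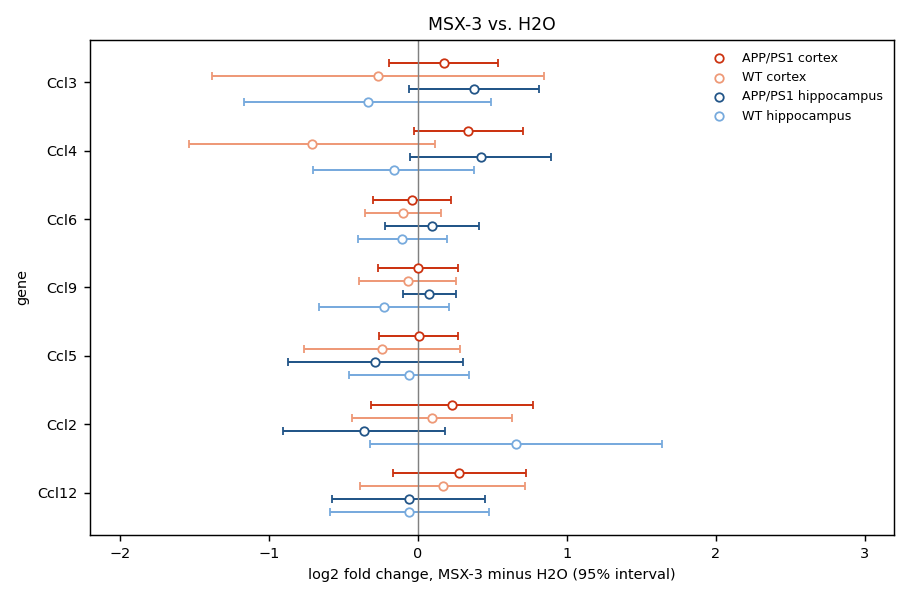
Log2 fold change of MSX-3 over H2O for the 7 measured CC chemokines (x axis; bars are 95% intervals from limma) in each genotype and tissue. All points are open because none passed the test, and the differences lie between -0.71 and 0.66.

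Whether the genotype change differed between agents was asked with the interaction of genotype and treatment, which no member passed in cortex or hippocampus, as 0% of the probes did in each (1794 and 1869 probes were under an unadjusted p of 0.05). The interaction of Ccl4 in cortex was 1.05 (95% interval 0.20 to 1.90, adjusted p = 0.744, limma) and that of its second probe 1.59 (0.73 to 2.45, adjusted p = 0.744, limma), and its WT cortical levels were near background. For Ccl6 the interaction was 0.06 (-0.29 to 0.41) in cortex and 0.20 (-0.22 to 0.62) in hippocampus, for Ccl3 0.44 (-0.65 to 1.54) and 0.71 (-0.22 to 1.65), and for Ccl2 in hippocampus -1.02 (-2.14 to 0.10).

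The order of the group means put genotype before tissue for Ccl3, Ccl4 and Ccl6 and kept both agents next to each other. For Ccl6 the means were 1.19 ± 0.26 (SD) and 1.15 ± 0.14 in APP/PS1 cortex on H2O and MSX-3, -0.06 ± 0.25 and 0.04 ± 0.27 in APP/PS1 hippocampus, -1.91 ± 0.22 and -2.01 ± 0.27 in WT hippocampus and -2.46 ± 0.17 and -2.56 ± 0.16 in WT cortex. Neighbours that differed in agent lay within 1 SD of each other. For Ccl9 the order was the same but the spacing was not: APP/PS1 cortex (-1.98 on both agents), APP/PS1 hippocampus (-2.05 on MSX-3, -2.13 on H2O), WT hippocampus (-2.22 and -2.45) and, well apart, WT cortex (-3.13 and -3.20).

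Within the scan days the genotype differences of Ccl3, Ccl4 and Ccl6 kept their direction. Among cortex arrays of the earlier day on H2O (5 APP/PS1, 2 WT) they were 4.50, 4.14 and 3.67, and among those of the later day (1 APP/PS1, 3 WT) 6.12, 4.74 and 3.71. In the hippocampus on H2O the earlier day (6 APP/PS1, 2 WT) gave 3.28, 3.26 and 1.90. In MSX-3 cortex the earlier day (6 APP/PS1, 3 WT) gave 5.76, 5.51 and 3.72, and in MSX-3 hippocampus the days gave 4.20 and 4.12 for Ccl3, 3.70 and 2.85 for Ccl4 and 1.99 and 2.18 for Ccl6. In cortex on the earlier day Ccl9 differed by 1.09 and 1.30, Ccl5 by 1.17 and 1.73, Ccl12 by 1.79 and 1.88 and Ccl2 by 0.38 and 0.94, on H2O and MSX-3. Ccl9 in the hippocampus differed by 0.40 on H2O in the earlier day and by 0.42 and 0.35 on MSX-3. Ccl12 on H2O in the hippocampus was 1.23 with scan day as a block, where its adjusted p was 0.378 (limma) and the call was lost. On MSX-3 in the hippocampus, scan day as a block brought Ccl5 and Ccl12 past the threshold (adjusted p = 0.0296 and 0.0435, limma), so 5 of 7 passed, as did 0.325% of all probes in either direction. For MSX-3 vs. H2O within the earlier day, the members' differences in APP/PS1 mice ran from -0.02 (Ccl6) to 0.30 (Ccl4) in cortex and from -0.48 (Ccl5) to 0.56 (Ccl4) in hippocampus. In WT cortex Ccl3 differed by -1.06 in the earlier and 0.19 in the later day.

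Few slides held both genotypes of a tissue and agent. In H2O cortex only slide 5 did, with 2 APP/PS1 arrays and 1 WT array. The fold changes with slide as a block there are the differences within that slide. With slide as a block 3 of 7 members rose in H2O cortex (Ccl3, Ccl4 and Ccl6) while 2.02% of all probes passed in either direction. In H2O hippocampus, where slides 2 and 5 held 1 array of each genotype, no member passed, and 2 probes of all did. The fold changes with slide as a block were 4.74 for Ccl3, 4.16 for Ccl4 and 3.72 for Ccl6 in cortex and 3.63, 3.22 and 2.02 in hippocampus. In H2O cortex Ccl9 and Ccl12 lost the call at 1.27 and 2.23 (adjusted p = 0.0586 and 0.0572, limma), which were not smaller than without the block, and Ccl5 lost it at 1.13. On MSX-3 in the hippocampus the same 3 genes passed with slide as a block, against 0.118% of all probes. Over the slides that held both genotypes in the hippocampus, Ccl6 differed by 1.80 and 2.24 on H2O and by 1.75 to 2.31 on MSX-3.

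Markers of microglia moved with genotype as well. In the cortex 4 of 7, among them Cx3cr1, Csf1r and Aif1, rose on H2O and on MSX-3, and the median log2 fold change of the list was 0.88 and 0.89, whereas in the hippocampus none of 7 passed and the medians were 0.37 and 0.35. The summed level of the 7 markers, on a linear scale relative to the 75th percentile, was 118 to 151 in APP/PS1 and 90.7 to 128 in WT on H2O in the cortex, and 133 to 165 and 104 to 152 in the hippocampus. The sum weighs bright probes most, so it serves only to compare the groups of a tissue. The part of the microglial markers in the chemokine changes was not tested. No marker passed of monocytes (3 of 5 measured in cortex, 2 of 5 in hippocampus), neutrophils (2 of 5), T cells (4 of 6), NK cells (3 of 5), B cells (3 of 4), border macrophages (4 of 5), astrocytes (6 of 6) or endothelium (4 of 4), in any genotype comparison. Of all probes, 1.34 and 1.29% rose in cortex and 0.338 and 0.312% in hippocampus, on H2O and MSX-3. Among so few markers, none passing is near that share. Gfap was not in the astrocyte list, and the authors' quantitative PCR found it raised in both tissues of APP/PS1 mice on H2O. Ccr2, the receptor of Ccl2, Ccl7 and Ccl12 that monocytes carry, was well above background on 0 arrays in either tissue. Nor did any gene pass of the lists for neurons, oligodendrocytes, choroid plexus, blood, cortex and hippocampus.

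Of the CC receptors and their decoy relatives, 8 of 14 were measured in cortex and 7 of 14 in hippocampus, and Ccrl2 was the only one that rose. Ccrl2, an atypical receptor that binds the attractant chemerin, changed by 0.79 ± 0.10 in H2O cortex (1.73-fold, adjusted p = 0.000693, limma), 1.09 ± 0.16 in MSX-3 cortex and 0.83 ± 0.12 in H2O hippocampus. On MSX-3 in the hippocampus it differed by 0.69 ± 0.17 and did not pass. Ccr9 in H2O hippocampus differed by -0.78 ± 0.23 (adjusted p = 0.247, limma). Ccr1, the receptor of Ccl6 and Ccl9, was well above background on 1 of 22 cortex arrays and 0 of 24 hippocampal arrays and was not tested. The median log2 fold change of the list was 0.13 in H2O cortex and 0.00 in H2O hippocampus.

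No rise of the other CC ligands passed the test. The members and lists were chosen with earlier results of these data known, so a contrast with the members is not independent of that choice. Of 13, 7 were measured in each tissue and none passed in any genotype comparison, with medians of -0.20 and 0.05 on H2O and 0.09 and -0.01 on MSX-3, in cortex and hippocampus. Of all probes, 1.34 and 0.338% rose on H2O and 1.29 and 0.312% on MSX-3, so none of 7 is near that share. The largest differences were 0.55 ± 0.18 for Ccl17 in MSX-3 cortex (adjusted p = 0.248, limma) and 0.50 ± 0.29 for Ccl24 in H2O hippocampus (adjusted p = 0.58, limma). Ccl8 and Ccl11, which lie beside Ccl12 on the chromosome, were well above background on 8 and 1 of 22 cortex arrays and were not tested.

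Among 20 of 22 measured genes of chemokine receptor signalling, 3 rose in H2O cortex, 5 in MSX-3 cortex, 1 in H2O hippocampus and 0 in MSX-3 hippocampus (limma), and none fell. In MSX-3 hippocampus Rac2 differed by 0.52 ± 0.13, and Vav1 had an adjusted p of 0.0400 (limma) at less than 1.5-fold. Vav1, an exchange factor for Rac proteins, changed by 1.16 ± 0.10 in H2O cortex, 1.32 ± 0.10 in MSX-3 cortex and 0.63 ± 0.09 in H2O hippocampus, and its rise on MSX-3 was larger in cortex than in hippocampus by 0.82 (adjusted p = 0.00318, limma). Rac2, the blood cell form of Rac, changed by 1.11 ± 0.10 and 1.14 ± 0.10 in cortex. Pik3cg, the catalytic subunit of a phosphoinositide kinase that G proteins activate, and the Rac exchange factor Dock2 rose only in the MSX-3 comparison by this test, by 1.82 ± 0.29 and 1.08 ± 0.12, and neither interaction with treatment passed. Pik3cg was well above background on only 11 of 22 cortex arrays, so the size of its change rests partly on spots near background. The medians of the list were 0.34 and 0.24 in cortex and 0.25 and 0.12 in hippocampus, on H2O and MSX-3.

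Of the regulators of chemokine transcription, 17 of 18 were measured in cortex and 16 of 18 in hippocampus. Irf8, a transcription factor of microglia and other myeloid cells, rose in all 4 comparisons, by 1.62 ± 0.11 and 1.62 ± 0.11 in cortex and by 0.91 ± 0.08 and 0.88 ± 0.10 in hippocampus, on H2O and MSX-3. Like Ccl4 and Ccl6, Irf8 rose more in cortex than in hippocampus, by 0.71 on H2O (adjusted p = 0.0176, limma) and 0.74 on MSX-3 (adjusted p = 0.0287, limma). Irf7, a regulator of interferon responses, rose by 1.55 ± 0.19 and 0.92 ± 0.19 in cortex and by 1.28 ± 0.19 in H2O hippocampus. Nfkb2, an NF-kB subunit, rose by 0.76 ± 0.12 in H2O cortex. Il1a was well above background on 0 arrays in either tissue. The medians of this list were 0.15 and 0.24 in cortex and 0.12 and -0.02 in hippocampus.

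The genes with the pattern most like each chemokine were sought over all 46 arrays among 16028 named genes, as a description in which the correlation mixes genotype, tissue and agent. Ccl3 was most like Cst7, a cystatin of activated microglia (r = 0.98), followed by Slc15a3 and Bcl2a1d. Ccl4 was most like Slc15a3 (0.97), Cst7 (0.97) and the lysosomal protease gene Ctss (0.96), and Ccl6 was most like the microglial receptor gene Trem2 (0.98), Hvcn1 (0.98) and Cd68 (0.98). For Ccl12 the closest was Gpr84 (0.91) and for Ccl9 the complement gene C4b (0.86). The closest to Ccl5 were Cxcl10 (0.87), Oasl2 (0.85) and Bst2 (0.85), which interferons induce. No gene exceeded r = 0.70 for Ccl2 (Rgs10).

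Across the 12 APP/PS1 mice, as deviations from the mean of each agent's group, the cortical and hippocampal levels of a gene were compared in 7 relations. Pearson's r was 0.78 for Ccl9 (Spearman's rho 0.62), 0.70 for Ccl4 (0.59) and 0.69 for Ccl12 (0.70), with permutation p of 0.0103, 0.0176 and 0.0239, and all 3 had an adjusted p of 0.0556. For Spearman's rho the permutation p were 0.0446, 0.0489 and 0.0215, and the adjusted p of all 3 was 0.114. Without the 2 mice farthest from the median Pearson's r was 0.44, 0.53 and 0.47, and over the 9 mice with both arrays from the earlier scan day 0.86, 0.63 and 0.62. No relation passed the adjustment. Between members within a tissue, r ran from -0.50 (Ccl4 with Ccl5, hippocampus) to 0.68 (Ccl2 with Ccl6, cortex) over 42 pairs, and the smallest adjusted permutation p was 0.460, or 0.374 for Spearman's rho.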

How the data were processed

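One-colour Agilent 8x60k mouse arrays (Cy3) of 48 tissue samples were analysed. The authors scanned them and extracted the spots with Feature Extraction 10.7.3.1. The deposited values are intensity of each spot after background subtraction within the array, 62976 spots an array, of which 3671 were controls and left out. A deposited series table held the same values. The authors normalized to the 75th percentile and used a moderated test with Benjamini-Hochberg adjustment and a 1.5-fold minimum, and the same rule was applied here. Log2 of the deposited intensity minus each array's 75th percentile was computed, and spots of a probe were averaged. Probes that cleared the background flag on 4 or more arrays of any group of a tissue were kept (37680 probes in cortex, 38128 in hippocampus, 36743 in both). Probe accessions were named through RefSeq (32994 of 56605 probes, 22911 genes). Probe sequences were not used here, so hybridisation to related chemokines was not checked.

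Groups were compared with limma 3.58.1 (lmFit and eBayes, R 4.3.3), with the arrays of the compared groups only, adjusting over all kept probes. The fit was tested on simulated data. The kept probe with the highest mean stood for a gene. Mouse numbers come from the sample titles and tie the tissues of 1 animal, so the mouse was used as a block for tissue contrasts as an alternative. In the 12 APP/PS1 mice the deviations of the tissues correlated positively for 6 of the 7 genes, and no relation passed the adjustment. These signs cannot check the pairing, and the WT mice were not examined in this way. Correlations used 100000 permutations within agent (two-sided), with Python 3.11.15. The number of arrays limits the precision. Alternatives were normalization, background correction, probe filter, prior trend, array weights, slide, scan day, all groups in 1 fit, all arrays, and each mouse left out. Named genes were all members, list genes that passed a genotype comparison or otherwise the 2 with the largest change, and the 3 genes most like each member. Ccr1, Ccr2, Ccr9, Ccl8, Ccl11 and Il1a were named for their role, place or size after their values were seen. Fits within a scan day were added after seeing the data. Samples of a group were separate mice per the labels. Some genes of the lists are counted but not reported singly here. The members and lists were chosen with earlier results of these data known.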

Additional observations from a re-analysis of the deposited data

Results flagged for a closer look

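Mouse 283, an APP/PS1 mouse on MSX-3, had the lowest level of its group for Ccl9 in cortex (-2.44, next lowest -1.98) and for Ccl3 in hippocampus (-1.60, next -1.28), each further from its group than Dixon's critical value allows. With 56 groups of values examined, chance flags about 1 in 20.

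The genotype change differed between cortex and hippocampus for Ccl6 (1.80 on H2O and 1.66 on MSX-3), Ccl4 (1.78 and 2.25) and Ccl9 (1.06 on H2O), in log2 units with cortex larger, by the contrast of the tissues' fold changes. That contrast took the 2 tissues of a mouse as separate arrays. With the mouse as a block Ccl9 did not pass (adjusted p = 0.0585, limma), and its call was lost in 4 of 12 fits that left out 1 mouse.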

How the results depend on the processing

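Of 2492 values of single members under alternatives, 2415 kept their call, 60 lost it and 17 gained it, and no called value changed direction (96 values that had not passed changed sign). Many of these values belong to MSX-3 vs. H2O and to the interaction, where no probe passed in the main fit, so an unchanged call was nearly fixed. Only a value that passed in the main fit could lose its call, so the total of 2492 is not the base for the 60. With all 48 arrays, the 2 without a grid included, the members called fell to 1 in cortex on H2O and 1 on MSX-3, and to 0 for both tissue differences. With slide as a block 3 members were called in H2O cortex and 0 in H2O hippocampus, and in both few slides held both genotypes. With scan day as a block 5 were called in MSX-3 hippocampus. In the later scan day alone (2 arrays a genotype), chosen after seeing the data, 0 were called in MSX-3 hippocampus. Array weights left 1 for the tissue difference on MSX-3. With the mouse as a replicate block the tissue difference was called for 2 members on H2O and 2 on MSX-3. Leaving out 1 mouse gave 6 to 6 members in H2O cortex, 6 to 7 in MSX-3 cortex, 4 to 5 in H2O hippocampus, 3 to 4 in MSX-3 hippocampus and 1 to 3 for each tissue difference. No alternative gave a call for MSX-3 vs. H2O or the interaction. Slide as a block could not be fitted for the genotype comparison in MSX-3 cortex, nor the later scan day alone in 4 comparisons. Levels of Ccl3 and Ccl4 in WT mice and of Ccl2 lie near background, which limits their folds. Counts over all probes, in either direction, were 559 (H2O cortex), 536 (MSX-3 cortex), 144 (H2O hippocampus) and 120 (MSX-3 hippocampus). With all arrays they were 51 and 30 in cortex. With normexp they were 342 in H2O cortex, 86 and 59 in hippocampus. With slide as a block they were 2 and 45 in hippocampus, and with scan day as a block 68 in H2O hippocampus. The earlier scan day alone gave 217, 38 and 38 (H2O cortex, then hippocampus), and the later one 5552 in H2O cortex and 0 in MSX-3 hippocampus. Array weights gave 1043 in H2O cortex. The tissue difference passed for 100 probes on H2O and 68 on MSX-3. On H2O it passed for 3 with all arrays, 61 without the probe filter, 47 with the mouse block and 47 to 63 without any of 6 mice. On MSX-3 it passed for 5 with all arrays, 130 with array weights and 45 without APP/PS1 mouse 281.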
